A study of Mus musculus with 10 samples.

Results

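Livers of female mice of the inbred strains DBA/2J (D2) and C57BL/6J (B6) were compared while the animals ate a diet high in fat and cholesterol. The comparison used 8 of the 10 arrays of the study, 4 per strain, taken after 1, 4, 12 and 21 weeks on the diet and paired by week. The other two arrays, 1 per strain, came from livers at week 0 and were left out of the comparison. Both strains carried their own inbred genomes without any further genetic change, both received the same diet, and the ages of the mice were not given in the labels, so age rose with the weeks by an unstated amount. Each array, an Affymetrix Mouse Genome 430 2.0 chip, was hybridised with a pool of equal amounts of liver RNA from 5 mice of a strain at a week. The weeks therefore served as the replicates of a strain. The spread between mice was averaged within each pool and was not measured. The spread used in the tests is how much the strain difference varied from week to week, drawn by limma towards that of genes of similar level.

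The liver makes bile acids from cholesterol, packs triglyceride into lipoproteins, burns fatty acids, and attaches sulfate, glucuronic acid or glutathione to steroids and drugs so that they can be excreted. A diet rich in fat and cholesterol loads all of these routes. In susceptible mice it also brings macrophages that take up lipid and stellate cells that lay down collagen. C57BL/6J and DBA/2J are the parents of the BXD recombinant panel and differ at many known loci, among them deletions, duplications and stop mutations that change the transcript itself.

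Values are levels, log2 of the quantile-normalised signal plus 1.05, and differences are D2 minus B6 on this scale, so that 1 is about a 2-fold difference for well-detected genes. For low genes the size of a difference is uncertain and can be too small or too large. Levels under 3.74, the median over all probe sets of the mean over 10 arrays, are called low here. Errors after ± are limma's moderated SE of the strain difference over the 4 pairs. They can be smaller or larger than the SE of a gene's own 4 differences. Of 18193 genes with a named probe set, 11061 had a probe set above that level and were tested, each through its brightest probe set. The 2% trimmed mean signal of the diet arrays ran from 68.5 to 88.7 before normalisation. Correlations between arrays were 0.936 to 0.967 within B6, 0.970 to 0.982 within D2 and 0.917 to 0.954 between strains at the same week. The 13 hepatocyte markers tested summed on the linear scale to values from 64830 to 67490 in the B6 arrays and between 65510 and 67950 in the D2 arrays on the diet. Quantile normalisation gives the brightest probe sets nearly the same values in every array, so these sums do not show equal amounts of hepatocyte RNA, and with the arrays centred on their median instead the median difference of these markers was 0.19. The B6 array of week 4 had the highest summed signal of macrophage, stellate cell, neutrophil and T cell markers among the 8 diet arrays, and values by week are given beside those lists. The number of arrays limits the precision of every value.

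On the diet 705 of 11061 genes (6.37%) passed limma's test of the strain difference, with the arrays blocked by week, at an adjusted p under 0.05. Of these, 329 (2.97%) were higher and 376 (3.4%) were lower in D2. These shares of all genes tested are the ones to set beside the counts called in each gene list below. With the arrays kept at the scale the authors deposited, the split was 173 higher and 357 lower, a scale on which the median of all genes shifted by −0.10. The median size of the called differences was 0.94, and 332 were at least 2-fold, 150 of them higher and 182 lower in D2. At least 4-fold differences were seen for 79 genes, 38 higher and 41 lower. Of the called genes 15 were low in every D2 array and 8 in every B6 array on the diet, so the sizes of these differences are uncertain. All 705 lay on the same side at each of the 4 weeks, as 32.4% of all genes tested did, and the levels of the strains did not overlap in 625, or 88.7%, against 15.8% of all genes tested. Both traits largely follow from the paired test that picked these genes on the same arrays, so they add no support to the calls. Without either array of week 12 the count of called genes fell to 223 or 225, without either array of week 21 to 238 or 239, and without either array of week 4 to 349 or 352. With the week block, leaving out 1 array also takes its partner of that week out of the strain estimate. Omitting either array of a week is thus nearly the same check, and a call lost in it can reflect the smaller number of pairs. With a single prior for the spread of all genes, in place of one that follows the level, the count was 460.

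The week 0 pair took no part in these calls. It had the same sign as on the diet for 631 of the 705 genes (89.5%), against 60.4% of all genes tested. Among genes higher in D2 on the diet 290 of 329 were higher at week 0, and among those lower 341 of 376 were lower. Of the 332 genes with a 2-fold difference on the diet, 219 had at week 0 at least 0.5 of their log2 difference in the same direction, and 113 had less or the opposite sign. A test of whether the strain difference on the diet differed from that of the week 0 pair called 0 genes in limma, with 708 at an unadjusted p under 0.05 and a smallest adjusted p of 0.115. That test rests on a single pair before the diet.

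**Figure D1:**
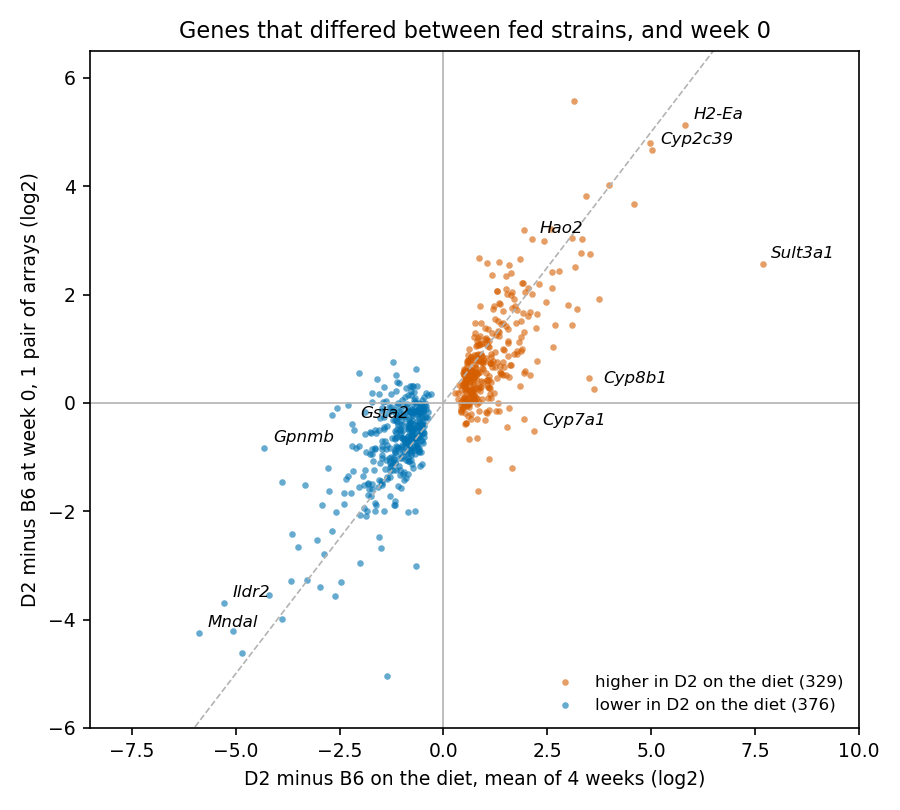
Each point is 1 of the 705 genes that differed between the strains on the diet; the x axis is the mean D2 minus B6 difference over 4 weeks and the y axis the difference of the single week 0 pair, both in log2, with a dashed line where they are equal. Most points lie in the lower left and upper right (631 of 705 share the sign), while Cyp8b1, Cyp7a1 and Gsta2 lie close to or across the zero line of week 0.

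Sult3a1, a cytosolic sulfotransferase gene with female-biased expression in mouse liver, had the largest fitted difference towards D2. It read 0.79, 2.60, 7.09 and 4.50 in B6 at weeks 1, 4, 12 and 21, and 11.25, 11.19, 12.51 and 10.78 in D2. All D2 arrays were high and close together, while the B6 arrays ran from below the low mark to a middle level, so the weekly differences ranged widely (10.46, 8.59, 5.41 and 6.28). The mean difference was 7.69 ± 0.76 (moderated SE, 4 pairs, adjusted p = 0.00341). At week 0 B6 stood at 9.67 and D2 at 12.23, a difference of 2.57; the change in the difference had an unadjusted p of 0.02 and an adjusted p of 0.743. Cyp3a44, a female-predominant steroid hydroxylase of the cytochrome P450 family, was at 5.04, 4.25, 4.76 and 4.73 in B6 and at 8.47, 7.87, 9.58 and 7.86 in D2. The strains did not overlap, and its difference of 3.75 ± 0.27 (adjusted p = 0.000968) compared with 1.92 at week 0.

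H2-Ea encodes the alpha chain of the MHC class II molecule E, and the C57BL/6J haplotype carries a promoter deletion that silences it. Its level was 3.12, 2.80, 1.10 and 1.98 in B6, all low, and 8.37, 7.50, 8.19 and 8.21 in D2. The difference was 5.81 ± 0.38 (adjusted p = 0.000635), and week 0 gave 5.13. Corin, the protease gene whose product activates the atrial natriuretic peptide precursor, was low in all B6 arrays (1.72, 2.13, 1.92 and 3.24) and at 7.56, 7.28, 6.95 and 7.08 in D2. Cap1, which encodes an actin-binding protein, varied little over the weeks: B6 arrays read 3.93, 3.87, 4.16 and 4.09 and D2 arrays 8.57, 8.64, 8.52 and 8.71. The differences of Corin (4.97 ± 0.32, adjusted p = 0.000635) and Cap1 (4.59 ± 0.13, adjusted p = 4.03e-05) were present at week 0 as well, at 4.79 and 3.66.

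Among the other genes of the 12 largest differences towards D2 were Enho, Rassf4, Snrnp25, Tmem87a and Serpina4-ps1. Enho encodes adropin, a secreted peptide linked to energy balance, and stood at 5.16, 4.89, 5.12 and 4.70 in B6 and 8.14, 9.0, 8.42 and 8.38 in D2 (3.52 ± 0.19, adjusted p = 0.000462). Every D2 array lay above every B6 array, and the week 0 difference was 2.75. Rassf4, a Ras-association domain gene (3.42 ± 0.33, adjusted p = 0.00322), Snrnp25, which encodes a protein of the minor spliceosome (3.32 ± 0.34, adjusted p = 0.00392), and Tmem87a, a membrane protein gene (3.99 ± 0.51, adjusted p = 0.00797), did not overlap between the strains either. In Tmem87a the week 1 array of B6 read 0.64 against 3.10 to 3.57 in the other B6 arrays. All of these were low, so the size of its difference is uncertain. Serpina4-ps1, a serpin pseudogene, read 6.34, 2.67, 6.22 and 1.84 in B6 and 8.55, 8.26, 7.87 and 6.42 in D2, low in B6 only at weeks 4 and 21. Its call (3.50 ± 0.63, adjusted p = 0.0266) was lost when a week 21 array of either strain was left out (adjusted p reaching 0.108).

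Cyp2c39 and Cyp8b1 were among the same 12 genes, and Cyp2c38, another gene of the Cyp2c family, was called too. The 250 bases upstream of the start of each are shown because all 3 of these P450 genes were higher in D2 and the Cyp2c38 and Cyp2c39 windows are similar to each other. The sequences are those of the RefSeq assembly GRCm38.p6, which represents C57BL/6J and not DBA/2J. Capitals mark the core letters bound by forkhead factors of the FOXA type, TATTTAC and TGTTTAC or, on the other strand, GTAAATA and GTAAACA.
Cyp2c38, chr19:39463076-39463325, minus strand: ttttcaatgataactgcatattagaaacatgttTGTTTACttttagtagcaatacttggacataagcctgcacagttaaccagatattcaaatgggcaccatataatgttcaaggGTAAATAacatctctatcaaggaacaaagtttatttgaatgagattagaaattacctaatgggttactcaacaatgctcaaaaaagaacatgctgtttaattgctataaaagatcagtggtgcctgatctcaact
Cyp2c39, chr19:39510572-39510821, plus strand: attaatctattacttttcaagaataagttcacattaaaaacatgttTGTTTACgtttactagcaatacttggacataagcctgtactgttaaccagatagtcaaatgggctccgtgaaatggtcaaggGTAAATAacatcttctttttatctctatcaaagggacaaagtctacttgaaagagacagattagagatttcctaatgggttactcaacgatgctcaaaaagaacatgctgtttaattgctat
Cyp8b1, chr9:121916306-121916555, minus strand: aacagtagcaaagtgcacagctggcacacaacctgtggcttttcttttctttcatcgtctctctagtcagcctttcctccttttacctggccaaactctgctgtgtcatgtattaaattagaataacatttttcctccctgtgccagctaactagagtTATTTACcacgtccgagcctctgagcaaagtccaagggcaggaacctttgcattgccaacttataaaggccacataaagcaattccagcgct

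The Cyp2c38 window held 2 matches, which began 217 and 135 bases upstream of the start, and the Cyp2c39 window held 2, at 204 and 122. The Cyp8b1 window held 1, at 92. Of 32851 RefSeq windows of this length, 1892 (5.76%) held either form, 896 (2.73%) TATTTAC and 1040 (3.17%) TGTTTAC. Some windows held both forms, as those of Cyp2c38 and Cyp2c39 did at separate places. The Cyp2c38 and Cyp2c39 windows were identical at 198 of 279 aligned columns (71.0%), and each matched the Cyp8b1 window at 47.5% and 48.3%. For Cyp2c39 the table lists 2 starts, and the start nearest the end of the gene was used. The motif was chosen after the values of these genes were seen, and a match is a description of the letters only.

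Cyp2c39 encodes a P450 enzyme that acts on retinoic and arachidonic acid. It read 5.45, 5.38, 5.51 and 6.30 in B6 and 10.64, 10.61, 10.76 and 10.74 in D2, a difference of 5.03 ± 0.16 (adjusted p = 4.03e-05) with 4.67 at week 0. D2 was nearly constant over the weeks, and B6 was highest at week 21. Cyp2c38 read 8.71, 9.20, 10.01 and 9.79 in B6 and 10.92, 11.35, 10.91 and 11.12 in D2 (1.65 ± 0.22, adjusted p = 0.0102; 2.04 at week 0). Here the weekly differences were 2.21, 2.16, 0.90 and 1.34, largest at weeks 1 and 4. Genes of this family are similar to one another, and how far each probe set also reads its relatives was not tested. Of 27 drug-metabolising P450 genes and their regulators, a list without Cyp3a44, 2 were higher (these) and 2 lower in D2. Beside this, 6.37% of all genes tested were called. The median difference of the list was 0.03 beside 0.01 for all genes tested. The 2 lower were Cyp3a13 (10.37, 10.16, 10.35 and 10.61 in B6, 8.54, 8.31, 7.89 and 8.58 in D2, difference −2.04 ± 0.12, adjusted p = 0.000559) and Cyp2b10, a target of the xenobiotic receptor CAR. Cyp2b10 ran in parallel over the weeks in both strains (9.22, 7.13, 8.54 and 8.76 in B6, 8.19, 6.36, 6.89 and 7.07 in D2), so the levels overlapped while each week gave a lower D2 array. Its call (−1.28 ± 0.18, adjusted p = 0.0108) was lost when a week 12 or 21 array of either strain was left out (adjusted p reaching 0.058).

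Mndal, a gene of the interferon-inducible p200 family that senses nucleic acids, had the largest fitted difference the other way. B6 arrays read 7.96, 9.18, 7.85 and 7.93 and D2 arrays 3.58, 2.98, 2.27 and 0.57, a difference of −5.88 ± 0.44 (adjusted p = 0.00116; −4.26 at week 0). All D2 arrays were low and are not shown to be above background, so the size of this difference and its rank beside Gm7969 and Nlrp12, also low in D2, are uncertain. Ildr2, an immunoglobulin-like receptor gene mapped as a diabetes modifier in crosses of these strains, was at 9.17, 9.19, 9.38 and 9.77 in B6 and 4.43, 3.80, 3.82 and 4.35 in D2. The groups lay far apart (−5.28 ± 0.16, adjusted p = 4.03e-05), and week 0 gave −3.70. Both genes and the predicted gene Gm7969 (−5.06 ± 0.32, adjusted p = 0.000559) were read by probe sets of a type that can bind more than 1 transcript. Another probe set of Mndal and of Gm7969, and both other probe sets of Ildr2, were called the same way.

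Nlrp12, which encodes an inhibitory receptor of the NOD-like family, read 7.77, 6.29, 8.04 and 8.91 in B6 and 2.61, 3.11, 3.07 and 2.84 in D2, low in every D2 array (−4.84 ± 0.42, adjusted p = 0.00246). Gpnmb encodes a glycoprotein of lipid-laden macrophages and carries a stop mutation in DBA/2J. Its levels were 5.04, 8.74, 6.51 and 9.56 in B6 and 3.30, 3.07, 2.44 and 3.80 in D2. B6 thus moved by several log2 units between weeks, with weeks 4 and 21 highest, while D2 stayed near the low mark. The difference was −4.31 ± 0.64 (adjusted p = 0.0133), lost when a week 12 or 21 array of either strain was left out (adjusted p reaching 0.0647), and was −0.83 at week 0. A2ml1, a protease inhibitor gene related to alpha-2-macroglobulin, was at 7.93, 7.54, 7.07 and 6.55 in B6 and at 4.27, 2.68, 4.30 and 2.23 in D2 (−3.90 ± 0.33, adjusted p = 0.00225), with −1.45 before the diet. Zfp874a, a zinc finger gene (−4.19 ± 0.32, adjusted p = 0.00123), Trim34a, a tripartite motif gene (−3.64 ± 0.28, adjusted p = 0.00133), and the predicted genes Gm19696 (−3.32 ± 0.30, adjusted p = 0.00251) and Gm13306 (−3.88 ± 0.57, adjusted p = 0.0133) also did not overlap. Like Nlrp12, these genes were low in every D2 array on the diet and passed the filter through B6. The lack of overlap largely follows from that, and the sizes of their differences are uncertain. For Gm13306 the call was lost when a week 12 or 21 array of either strain was left out (adjusted p reaching 0.0687).

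Pdxdc1, a decarboxylase-like gene, read 8.33, 8.26, 8.51 and 8.42 in B6 and 4.94, 4.18, 4.97 and 4.71 in D2 through its brightest probe set (−3.68 ± 0.15, adjusted p = 0.000117). Its 3 other probe sets above the low mark differed by 6.02, −2.13 and −0.59, the first called the opposite way (adjusted p = 0.000374), so no direction can be given for the gene. With the mean of its probe sets the difference was not called (adjusted p = 0.842). Of the 705 called genes, 306 had another probe set above the low mark; in 130 another was called the same way, in 8 another was called the opposite way, and in 171 none was called. For 399 genes the call rested on 1 probe set. Probe sequences and DBA/2J variants were not looked at, so whether variants under probes changed the signal of any gene was not tested.

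**Figure D2:**
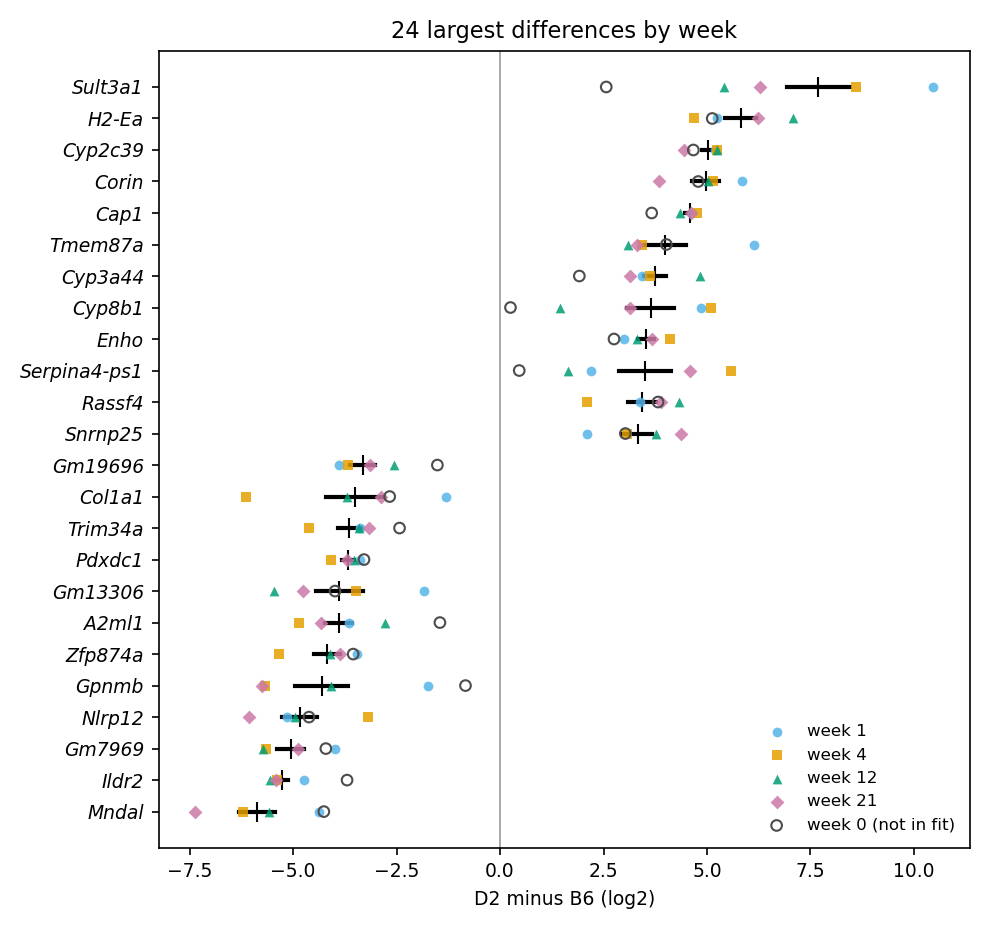
Rows are the 12 largest differences in each direction among called genes; filled symbols show D2 minus B6 in log2 at weeks 1, 4, 12 and 21, vertical bars the mean of the 4, and open circles the week 0 pair, which was not in the fit. For H2-Ea, Cyp2c39, Corin and Nlrp12 the open circle lies among the weekly points, whereas for Cyp8b1 it lies at 0.25 and for Gpnmb at −0.83, nearer zero than any week on the diet.

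Of 8 genes listed for known inherited differences between these strains, 7 were tested, and all 7 were called, 4 higher and 3 lower in D2. The list names differences known from outside these data, but it was drawn up with earlier results of these arrays known, so its count is no independent check of the labels. Nnt, the mitochondrial transhydrogenase partly deleted in C57BL/6J, read 9.06, 8.59, 8.80 and 9.04 in B6 and 10.06, 10.12, 10.05 and 9.92 in D2 (1.17 ± 0.12, adjusted p = 0.00425). Alad, an enzyme of heme synthesis, and Glo1, which detoxifies methylglyoxal, are duplicated in DBA/2J. They were higher in D2 by 1.31 ± 0.13 (adjusted p = 0.00317) and 0.90 ± 0.11 (adjusted p = 0.00697), and neither overlapped. Hc, the complement component C5 gene with a frameshift in DBA/2J, read 11.10, 11.08, 10.90 and 11.01 in B6 and 9.72, 9.76, 9.59 and 9.91 in D2, far apart beside the narrow spread within each strain (−1.28 ± 0.08, adjusted p = 0.000635). Klrd1, a natural killer cell receptor gene deleted in part in DBA/2J, was at 4.57, 5.80, 3.86 and 5.17 in B6 and at a low 2.96, 2.94, 3.04 and 2.87 in D2. Its call (−1.90 ± 0.37, adjusted p = 0.0343) was lost when a week 1, 4 or 21 array of either strain was left out (adjusted p reaching 0.142). H2-Ea and Gpnmb, described above, complete the list.

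Bile acid synthesis starts with Cyp7a1, the rate-limiting enzyme, and Cyp8b1, the sterol 12-hydroxylase, decides how much cholic acid is made. Cyp8b1 read 3.36, 3.63, 8.36 and 2.63 in B6 and 8.22, 8.72, 9.81 and 5.78 in D2. B6 was low at weeks 1, 4 and 21 and high at week 12, and D2 was higher at every week, with levels that overlapped between weeks. The difference was 3.64 ± 0.57 (adjusted p = 0.0165), lost when a week 1 or 21 array of either strain was left out (adjusted p reaching 0.0631) and without the week block (adjusted p = 0.115). At week 0 the strains read 10.92 and 11.17, a difference of 0.25; the change between week 0 and the diet had an unadjusted p of 0.033 and an adjusted p of 0.773.

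Cyp7a1 shared with Cyp8b1 the B6 peak at week 12 but not the rest of its course. It read 5.98, 7.46, 9.73 and 8.15 in B6 and 9.71, 10.28, 10.32 and 9.76 in D2. B6 was nearest to D2 at week 12, and D2 varied little. Its difference of 2.19 ± 0.46 (adjusted p = 0.0434) was lost when a week 1, 4 or 21 array of either strain was left out (adjusted p reaching 0.125), and week 0 gave −0.53, the opposite sign. Fgfr4, the hepatocyte receptor for the intestinal hormone that represses Cyp7a1, was higher in D2 by 0.79 ± 0.13 (adjusted p = 0.0216), lost when a week 4, 12 or 21 array of either strain was left out (adjusted p reaching 0.102). Hsd3b7, a sterol dehydrogenase of the same pathway, was higher by 0.35 ± 0.08 (adjusted p = 0.0474), a call that leaving out any 1 of the 8 arrays removed. Of 19 genes of bile acid synthesis and its control, these 4 were higher and 0 lower, beside 6.37% called of all genes tested, with a median difference of 0.10.

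Of 13 bile transport genes 3 were lower in D2 and 0 higher, beside 6.37% called of all genes tested, with a median of −0.08. Abcc2, the canalicular pump for conjugated bilirubin, read 9.23, 9.18, 9.55 and 9.29 in B6 and 8.35, 8.41, 8.66 and 8.60 in D2 (−0.81 ± 0.09, adjusted p = 0.00499; −0.73 at week 0). Abcg2, a canalicular efflux pump, read 9.0, 8.72, 8.53 and 8.75 in B6 and 7.77, 7.73, 7.06 and 7.94 in D2 (−1.13 ± 0.13, adjusted p = 0.00577; −0.35 at week 0). Abcc4, a basolateral efflux pump, read 6.51, 7.05, 7.09 and 6.82 in B6 and 5.17, 5.42, 5.77 and 6.04 in D2 (−1.27 ± 0.16, adjusted p = 0.00854; −0.08 at week 0). All D2 arrays lay below all B6 arrays in these 3 genes. The Abcc4 call was lost when a week 12 array of either strain was left out (adjusted p reaching 0.0524). Abcg5, a subunit of the canalicular sterol pump and a target of the oxysterol receptor LXR, differed by −0.93 ± 0.17 (adjusted p = 0.0275), the single call among 12 LXR targets (median −0.22), and lost it when a week 1, 4 or 12 array of either strain was left out (adjusted p reaching 0.106).

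Of 20 genes of cholesterol synthesis and uptake, 1 was lower in D2 and 0 were higher, although 18 of 20 mean differences were positive and the median was 0.61. The weekly medians were −0.48, 0.09, 2.08 and 0.15, so week 12 alone gave a large value, and without either array of that week the median was 0.03. Sqle, the squalene epoxidase that commits squalene to sterols, was at 5.0, 4.50, 4.76 and 3.80 in B6 and 4.58, 4.36, 9.27 and 3.99 in D2. A single array, D2 at week 12, stood high. The mean difference of 1.04 ± 0.79 did not pass (adjusted p = 0.469) and became −0.12 without either array of week 12. The called gene was Sc5d, the lathosterol desaturase (−1.47 ± 0.24, adjusted p = 0.0172), at 10.21, 10.14, 10.72 and 9.59 in B6 and 7.90, 8.66, 10.05 and 8.17 in D2. It was lower in D2 at each week, including week 12, and its call was lost when a week 4 or 21 array of either strain was left out (adjusted p reaching 0.0733) and with the mean of its probe sets (adjusted p = 0.283).

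Over 3 lists of fatty acid handling 11 of 69 genes tested were called (15.9%), beside 6.37% of all genes tested. Of 23 genes of lipogenesis and triglyceride synthesis, 2 were higher and 2 lower in D2 (median −0.08). Lpin1, the phosphatidate phosphatase that makes diacylglycerol and coactivates PPAR-alpha, was at 9.02, 9.64, 11.02 and 10.27 in B6 and 7.74, 6.68, 8.38 and 6.41 in D2. Every D2 array lay below every B6 array (−2.68 ± 0.36, adjusted p = 0.01), as at week 0 (−2.36), and the call was lost when a week 12 array of either strain was left out (adjusted p reaching 0.0556). Acaca, the carboxylase that makes malonyl-CoA, was lower (−0.90 ± 0.17, adjusted p = 0.0339), lost when a week 4, 12 or 21 array of either strain was left out (adjusted p reaching 0.113). Elovl5, the elongase of polyunsaturated fatty acids, was at 10.54, 10.65, 11.16 and 10.87 in B6 and at 11.48, 11.45, 11.79 and 11.41 in D2 (0.73 ± 0.09, adjusted p = 0.00697), with 0.07 at week 0. Dgat2, which joins the last acyl chain of triglyceride, was higher by 0.35 ± 0.08 (adjusted p = 0.049), a call lost whichever array was left out. Scd1, the stearoyl-CoA desaturase, differed by −0.26 ± 0.07 and did not pass (adjusted p = 0.0797).

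Of 19 genes of lipid droplets and fatty acid uptake, 3 were lower in D2 and 0 higher (median 0.09). Cd36, a scavenger receptor that takes up fatty acids, read 8.27, 9.18, 9.07 and 9.82 in B6 and 7.43, 7.30, 8.44 and 8.02 in D2 (−1.29 ± 0.23, adjusted p = 0.0254), lost when a week 4 or 21 array of either strain was left out (adjusted p reaching 0.102). Lpl, the lipoprotein lipase, read 9.41, 10.70, 7.60 and 9.90 in B6 and 8.39, 8.0, 6.22 and 8.61 in D2 (−1.60 ± 0.26, adjusted p = 0.0184), lost when a week 12 or 21 array of either strain was left out (adjusted p reaching 0.0737); D2 had been higher by 0.45 at week 0. Pparg, the nuclear receptor of fat storage, differed by −0.84 ± 0.15 (adjusted p = 0.0273) and lost its call whichever of the 8 arrays was left out. In these 3 genes the strains overlapped, while D2 was the lower array at each week.

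Fgf21 encodes a hormone that the liver releases in fasting and under metabolic stress. It read 4.75, 3.79, 4.02 and 5.28 in B6 and 7.07, 7.26, 6.57 and 7.53 in D2, with no overlap (2.64 ± 0.22, adjusted p = 0.00225). The week 0 difference was 1.03, smaller than at any week on the diet (2.31, 3.47, 2.55 and 2.25); the change had an unadjusted p of 0.0142 and an adjusted p of 0.738. Of 27 genes of fatty acid oxidation and PPAR-alpha targets, 4 were higher and 0 lower in D2 (median 0.31). The weekly medians were 0.46, 0.66, 0.03 and −0.02, near zero at weeks 12 and 21. Beside Fgf21 the called genes were Bdh1, the mitochondrial enzyme that interconverts ketone bodies (0.58 ± 0.08, adjusted p = 0.009), Hadha, a subunit of the trifunctional protein of beta-oxidation (0.51 ± 0.11, adjusted p = 0.0408), and Acads, the short-chain acyl-CoA dehydrogenase (0.46 ± 0.09, adjusted p = 0.0378). Hadha and Acads lost their calls whichever of the 8 arrays was left out, Bdh1 under none of these omissions. Ppara itself differed by 0.87 ± 0.22 (adjusted p = 0.0658). Pygl, the liver glycogen phosphorylase, was the single call among 16 genes of glucose metabolism (−0.51 ± 0.08, adjusted p = 0.0177), lost when a week 1, 12 or 21 array of either strain was left out (adjusted p reaching 0.083). None of 20 apolipoprotein and lipoprotein genes was called, with 3 at an unadjusted p under 0.05.

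**Figure D3:**
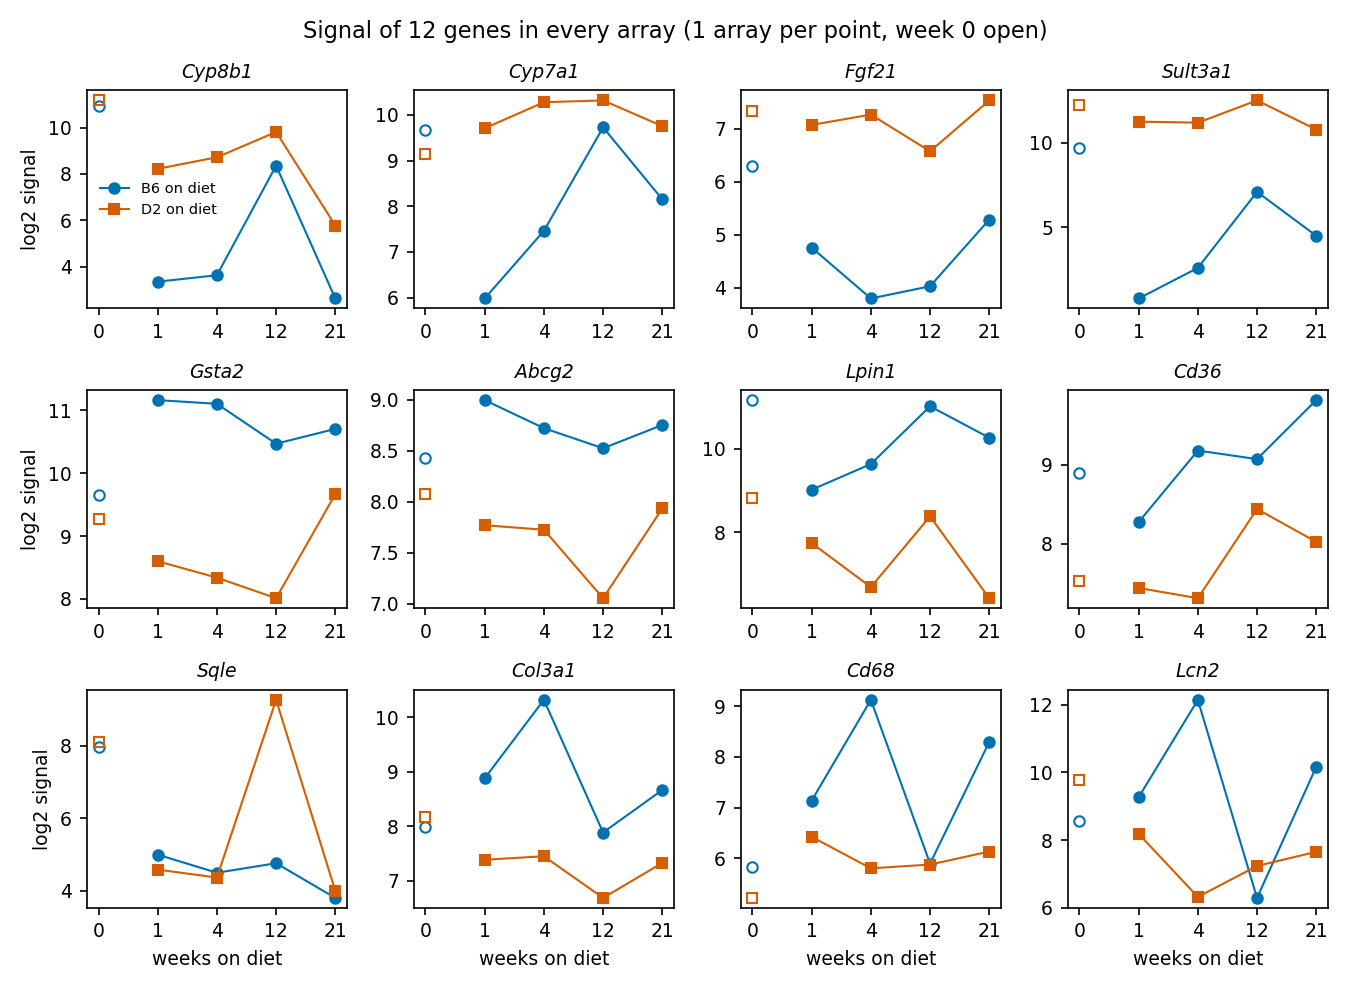
Panels show the log2 signal of 12 genes in every array against weeks on the diet, B6 as blue circles and D2 as orange squares, 1 array (a pool of 5 mice) per point, with week 0 open. Fgf21, Abcg2 and Gsta2 show separate strains at each diet week; Cyp8b1 and Cyp7a1 show B6 rising towards D2 at week 12; in Sqle the D2 array of week 12 stands alone at 9.27; and in Col3a1, Cd68 and Lcn2 the highest point is B6 at week 4.

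Glutathione transferases protect hepatocytes from electrophiles. Gsta2, of the alpha class, read 11.16, 11.10, 10.47 and 10.70 in B6 and 8.60, 8.34, 8.01 and 9.67 in D2, with D2 lower at each week and no overlap (−2.21 ± 0.27, adjusted p = 0.00722). The week 0 difference was −0.39. Gstm3, of the mu class, was at 12.39, 12.10, 9.22 and 11.24 in B6 and at 9.40, 10.80, 8.15 and 9.69 in D2 and overlapped between weeks; its call (−1.73 ± 0.30, adjusted p = 0.0213) was lost when a week 12 or 21 array of either strain was left out (adjusted p reaching 0.0779). These were the 2 calls among 28 glutathione and NRF2 genes, near the share of 6.37% called of all genes tested, and 0 genes were higher in D2. Of the 28 mean differences 24 were negative, with a median of −0.21 and weekly medians of −0.51, −0.31, −0.10 and −0.05.

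Of 20 sulfotransferase and glucuronosyltransferase genes, 6 were higher and 1 lower in D2, beside 6.37% called of all genes tested, although the median was −0.03 (0.09 with the arrays centred on their median). Beside Sult3a1 the higher sulfotransferases were Sult1c2 (1.16 ± 0.22, adjusted p = 0.0292; 2.35 at week 0) and Sult5a1 (1.08 ± 0.18, adjusted p = 0.0197; 1.36 at week 0). The higher glucuronosyltransferases were Ugt2b37 (1.82 ± 0.34, adjusted p = 0.0291), Ugt3a1 (0.75 ± 0.14, adjusted p = 0.0336) and Ugt2b1 (0.67 ± 0.15, adjusted p = 0.0471). Ugdh, the enzyme that makes the UDP-glucuronic acid these transferases use, was lower by contrast (−0.91 ± 0.17, adjusted p = 0.0292). All of them except Sult3a1 lost the call when 1 array was left out: Sult1c2 when a week 12 or 21 array of either strain was left out (adjusted p reaching 0.11), Sult5a1 when a week 4, 12 or 21 array of either strain or the D2 array of week 1 was left out (adjusted p reaching 0.0661), Ugt2b37 when a week 4, 12 or 21 array of either strain was left out (adjusted p reaching 0.119), Ugt2b1 when a week 4, 12 or 21 array of either strain was left out (adjusted p reaching 0.143), Ugdh when a week 1, 4 or 12 array of either strain was left out (adjusted p reaching 0.0934), and Ugt3a1 whichever of the 8 arrays was left out.

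Growth hormone pulses set many sex differences of mouse liver, and all mice here were female. Of 13 male-biased genes 4 were higher and 0 lower in D2 (median 0.70), and of 12 female-biased genes 4 were higher and 0 lower (median 0.59). Both lists thus had higher members, beside 2.97% higher of all genes tested. Among the male-biased genes Elovl3, an elongase of very long chains, read 5.10, 3.21, 5.27 and 4.84 in B6 and 6.95, 6.29, 6.34 and 5.76 in D2 (1.73 ± 0.35, adjusted p = 0.0391). Socs2, a feedback inhibitor of growth hormone signalling, read 7.49, 7.24, 7.63 and 7.92 in B6 and 8.01, 8.93, 9.33 and 9.25 in D2 (1.31 ± 0.20, adjusted p = 0.0163; −0.01 at week 0). Nudt7, a peroxisomal CoA hydrolase, was higher by 1.38 ± 0.18 (adjusted p = 0.009) and Cyp2u1 by 1.65 ± 0.34 (adjusted p = 0.0406), the latter with −1.19 at week 0. Cyp2u1 read 4.46, 2.82, 2.70 and 2.73 in B6, low at weeks 4, 12 and 21, and a low 2.6 in D2 at week 0. The size of its difference and its sign at week 0 are thus uncertain. Hao2, a peroxisomal hydroxyacid oxidase of the female-biased list, read 7.01, 6.73, 7.90 and 6.03 in B6 and 7.97, 9.15, 10.34 and 8.70 in D2 (2.12 ± 0.28, adjusted p = 0.00854; 3.02 at week 0). Trim24, a corepressor of nuclear receptors, was higher by 0.61 ± 0.13 (adjusted p = 0.0465) and lost the call whichever of the 8 arrays was left out. The Elovl3 call was lost when a week 1, 12 or 21 array of either strain was left out (adjusted p reaching 0.106), that of Socs2 when a week 4, 12 or 21 array of either strain was left out (adjusted p reaching 0.076), that of Cyp2u1 when a week 4, 12 or 21 array of either strain was left out (adjusted p reaching 0.157), and that of Hao2 when a week 12 array of either strain was left out (adjusted p reaching 0.0532).

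Of 25 markers of stellate cells and matrix tested, 9 were lower in D2 and 0 higher, beside 6.37% called of all genes tested. Of their mean differences 23 were negative, and the median was −0.80. Weekly medians were −0.53, −1.19, −0.69 and −0.85, and the week 0 median was −0.15. The summed signal of the list ran from 4562 to 8549 in the B6 arrays and between 3195 and 4082 in the D2 arrays, so the strains did not overlap. In bulk liver RNA, fewer cells of a type and less RNA per cell cannot be told apart. Col3a1, a fibrillar collagen chain, read 8.88, 10.32, 7.88 and 8.66 in B6 and 7.38, 7.45, 6.68 and 7.32 in D2 (−1.73 ± 0.27, adjusted p = 0.0165; 0.19 at week 0). Col1a2, the partner chain of type I collagen, read 7.74, 9.35, 7.07 and 8.09 in B6 and 6.80, 5.73, 6.01 and 6.11 in D2 (−1.90 ± 0.42, adjusted p = 0.0482; −0.18 at week 0). All B6 arrays lay above all D2 arrays in both, and B6 was highest at week 4.

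Col1a1, the main chain of type I collagen, read 6.12, 7.59, 4.56 and 6.56 in B6 and 4.82, 1.45, 0.87 and 3.68 in D2, low in 3 of the 4 D2 arrays and overlapping at B6 week 12 and D2 week 1 (−3.50 ± 0.69, adjusted p = 0.0354). It differed by −2.67 at week 0. The other called members were Col5a2 (−1.47 ± 0.26, adjusted p = 0.0232), Col4a1 of the basement membrane (−1.13 ± 0.25, adjusted p = 0.0458), Tagln of the contractile apparatus (−0.98 ± 0.20, adjusted p = 0.0407), Col6a3 (−0.97 ± 0.15, adjusted p = 0.0172), Col14a1 (−0.84 ± 0.15, adjusted p = 0.0242) and the proteoglycan gene Bgn (−0.65 ± 0.14, adjusted p = 0.0452). Another probe set of Col1a1 (−1.28, limma adjusted p = 0.219), Col3a1 (−0.83, 0.168), Col1a2 (−2.26, 0.102) and Col14a1 (−0.61, 0.0688) was not called. The other probe sets of Col4a1 and Bgn above the low mark were called the same way. Acta2, the actin of activated stellate cells, differed by −0.02 and was not called. Without either array of week 12 or of week 21 the list had 0 calls, so all 9 were lost (medians −0.84 and −0.74). Without the B6 or D2 array of week 4 it had 5 or 8 calls (median −0.62), of which 4 or 7 were among the 9. Without that of week 1 it had 7 or 6, of which 5 or 4 were among the 9.

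Of 25 markers of macrophages and Kupffer cells, 3 were lower in D2 and 1 higher, beside 6.37% called of all genes tested. Of their mean differences 22 were negative, and the median was −0.86. By week the medians were −0.56, −2.38, 0.05 and −0.92, so the strains were apart at week 4 and together at week 12, and without either array of week 4 the median over weeks was −0.36. Summed signals ran from 6386 to 29470 in the B6 arrays and between 6781 and 9393 in the D2 arrays. Cd68, a lysosomal marker of macrophages, read 7.14, 9.13, 5.90 and 8.30 in B6 and 6.42, 5.80, 5.88 and 6.13 in D2 (−1.55 ± 0.50, adjusted p = 0.122). Adgre1, which encodes the F4/80 antigen, differed by −0.73 ± 0.29 (adjusted p = 0.192) and the Kupffer cell lectin gene Clec4f by −0.28 ± 0.13 (adjusted p = 0.256). None of these 3 passed, and no marker had a deposited value of 0 in any array.

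The called macrophage genes, beside Gpnmb with its stop mutation in DBA/2J, were Cd52, Cd5l and Cd163. The next tested genes along the chromosome from Cd52 were also lower in D2, as described below. Cd52, a small surface glycoprotein gene of leukocytes, read 8.12, 10.38, 7.07 and 8.28 in B6 and 5.78, 5.35, 5.62 and 6.0 in D2 (−2.78 ± 0.53, adjusted p = 0.0307), with no overlap. Cd5l, a scavenger protein secreted by Kupffer cells, differed by −1.56 ± 0.30 (adjusted p = 0.0307). Cd163, the haptoglobin-hemoglobin receptor, went the other way, at 6.74, 6.10, 5.67 and 3.77 in B6 and 8.28, 6.91, 7.74 and 7.14 in D2 (1.95 ± 0.37, adjusted p = 0.0326). Calls were lost for Cd52 when a week 1, 12 or 21 array of either strain was left out (adjusted p reaching 0.0936), for Cd5l when a week 1 or 21 array of either strain was left out (adjusted p reaching 0.122) and for Cd163 when a week 1, 12 or 21 array of either strain was left out (adjusted p reaching 0.114). Lgals3, a galectin of activated macrophages and the single call among 20 chemokine and inflammation genes (median −0.75), differed by −2.55 ± 0.58 (adjusted p = 0.0499) and lost the call whichever of the 8 arrays was left out.

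Over 7 further lists of cell type markers 5 of 62 genes tested were called (8.06%), near the 6.37% of all genes tested. Of 5 neutrophil markers 0 were called in limma, with 2 at an unadjusted p under 0.05; their sums ran from 143.4 to 1581 in the B6 arrays and between 158.2 and 230.1 in the D2 arrays, the highest being B6 at week 4, and their weekly medians were −0.10, −2.75, −0.09 and 0.25. Of 8 T and natural killer cell markers 1 was lower (Klrd1), with sums from 125 to 1422 in the B6 arrays and between 119.1 and 169.9 in the D2 arrays, again highest in B6 at week 4, and weekly medians of −0.49, −1.34, −0.10 and 0.10. Without either array of week 4 the medians over weeks were 0.12 for neutrophil and −0.27 for T and natural killer cell markers. The part of these cells in the differences of other immune genes was not tested. Of 8 B cell markers 1 was lower, Cd22, an inhibitory receptor (−2.20 ± 0.35, adjusted p = 0.0173), lost when a week 4, 12 or 21 array of either strain was left out (adjusted p reaching 0.082). Cd22 was low in every D2 array on the diet, so the size of its difference is uncertain. Of 18 sinusoidal endothelial markers 1 was lower, Lyve1, a hyaluronan receptor, at 6.62, 6.76, 6.67 and 7.21 in B6 and 5.44, 4.65, 5.12 and 4.81 in D2 (−1.81 ± 0.22, adjusted p = 0.00678; −1.48 at week 0), while the median of that list was −0.08. Krt8, a keratin of hepatocytes and bile ducts, was lower (−0.76 ± 0.13, adjusted p = 0.0198), lost when a week 1, 4 or 12 array of either strain was left out (adjusted p reaching 0.0694), and was the single call among 6 cholangiocyte markers. Of the 13 hepatocyte markers 1 was higher, Asgr2, a subunit of the asialoglycoprotein receptor (1.15 ± 0.11, adjusted p = 0.00267). None of 4 erythroid markers was called, with 1 at an unadjusted p under 0.05.

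**Figure D4:**
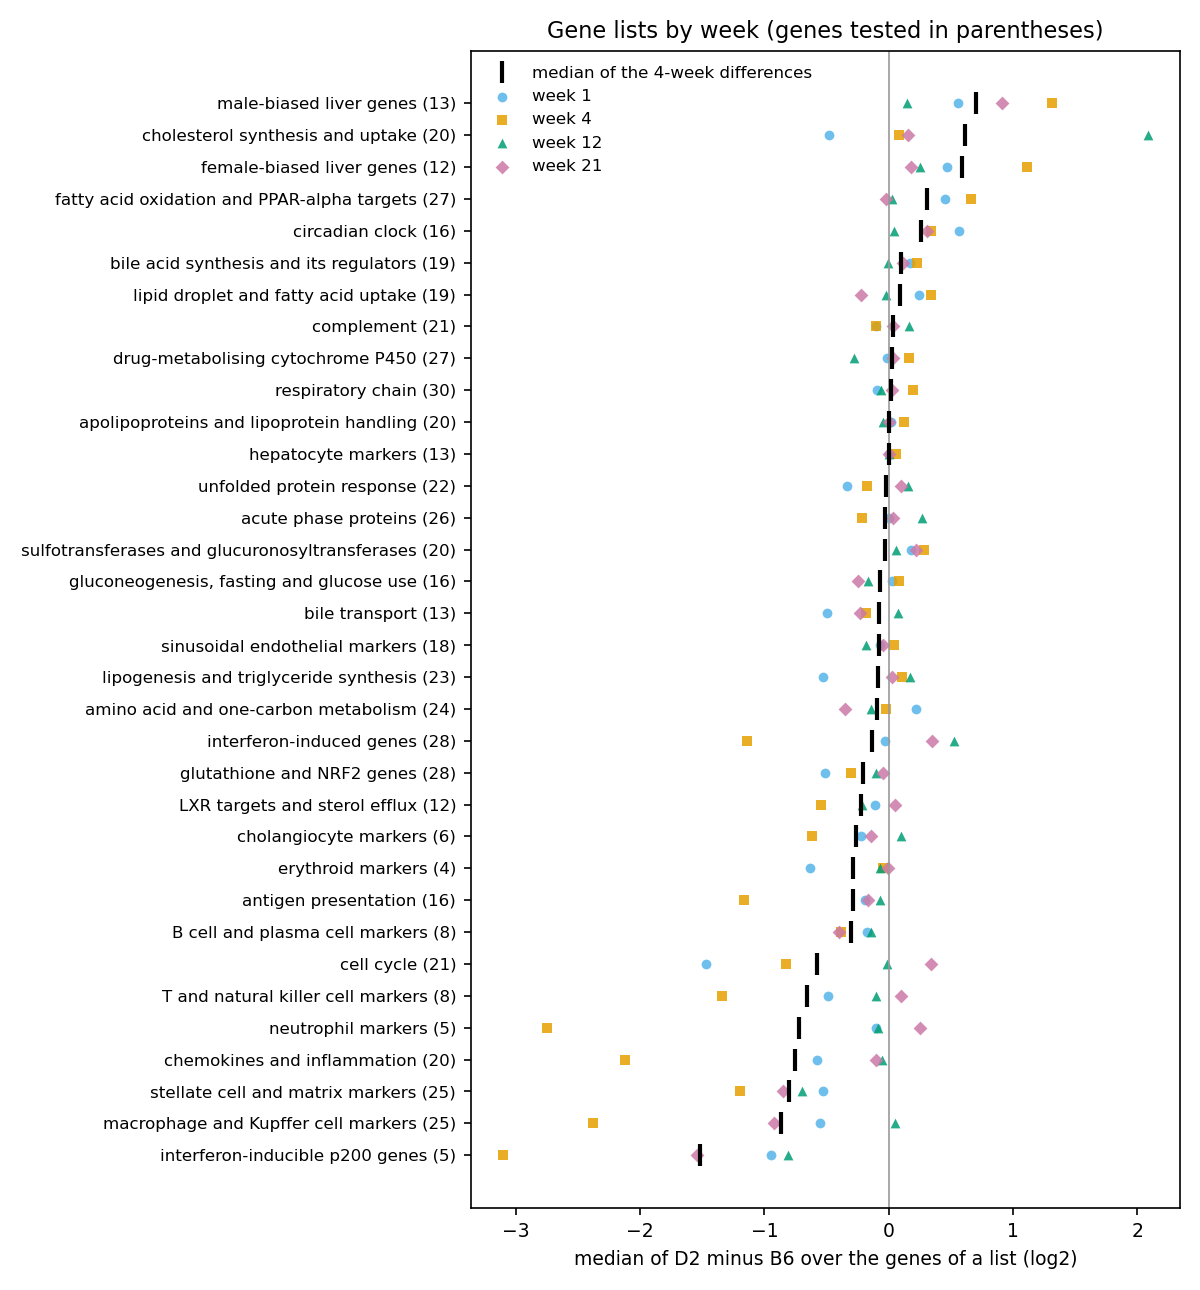
Rows are gene lists with the number of genes tested in parentheses; coloured symbols give the median D2 minus B6 difference in log2 over the genes of a list at weeks 1, 4, 12 and 21, and black bars the median of the 4-week differences. The week 4 symbols of macrophage, neutrophil, chemokine and p200 lists lie furthest to the left (−2.38 for macrophage markers), the week 12 symbol of cholesterol synthesis lies furthest to the right (2.08), and most other lists lie near zero.

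Of 5 p200 genes tested, 2 were lower in D2, beside 6.37% called of all genes tested, and all 5 differences were negative (median −1.52). The median level of the list by week was 3.58, 2.91, 3.48 and 3.74 in D2, near or under the low mark. In B6 it was 4.40, 5.76, 4.53 and 5.31. Members low in D2 passed the filter through B6, so the shared sign adds no support and the sizes are uncertain. Ifi209 read 5.41, 6.77, 4.53 and 5.31 in B6 and 3.59, 2.91, 3.14 and 3.77 in D2 (−2.15 ± 0.43, adjusted p = 0.0354), lost when a week 1, 12 or 21 array of either strain was left out (adjusted p reaching 0.0919). Among 28 interferon-induced genes outside that family, 1 was higher and 0 lower, with a median of −0.13 that moved by week (−0.03, −1.14, 0.53 and 0.35). The call was Ifi27, at 8.98, 8.72, 8.53 and 8.62 in B6 and 9.87, 9.88, 9.83 and 10.09 in D2 (1.20 ± 0.11, adjusted p = 0.00305; 0.78 at week 0). Of 16 antigen presentation genes 1 was higher (H2-Ea) and 1 lower. The lower was H2-K1, a class I heavy chain gene (−0.81 ± 0.12, adjusted p = 0.0124), lost when a week 21 array of either strain was left out (adjusted p reaching 0.063); the strains carry different alleles of it and none of its 3 other probe sets above the low mark was called the same way. H2-Ab1, a class II chain, differed by −1.64 ± 0.61 without passing (adjusted p = 0.168), and its B6 array of week 4 read 10.85 against 7.53 to 8.63 at the other weeks.

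Of 26 acute phase genes 3 were higher and 0 lower in D2, beside 6.37% called of all genes tested, with a median of −0.03. Apcs, the serum amyloid P component, read 9.50, 10.49, 9.58 and 9.88 in B6 and 11.26, 11.68, 11.66 and 11.43 in D2 (1.64 ± 0.14, adjusted p = 0.00242; 1.75 at week 0). Mt2, a metal-binding metallothionein, was higher (1.64 ± 0.36, adjusted p = 0.0458), lost when a week 1, 12 or 21 array of either strain was left out (adjusted p reaching 0.154), as was the protease inhibitor gene Serpina3n (0.81 ± 0.18, adjusted p = 0.0477), lost when a week 1, 4 or 12 array of either strain was left out (adjusted p reaching 0.149). Lcn2, a siderophore-binding protein of inflamed liver, varied widely within B6 (9.27, 12.15, 6.29 and 10.17, against 8.18, 6.32, 7.23 and 7.65 in D2) and did not pass (−2.12 ± 0.95, adjusted p = 0.237). Hc was the single call among 21 complement genes (median 0.03).

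Of 21 cell cycle genes 2 were lower in D2 and 0 higher, beside 6.37% called of all genes tested. Of their differences 19 were negative, and the median was −0.58 with weekly medians of −1.47, −0.83, −0.01 and 0.34. Rrm2, the regulated subunit of ribonucleotide reductase, read 8.49, 6.13, 6.71 and 6.89 in B6 and 4.70, 4.10, 4.25 and 4.11 in D2, with no overlap and B6 highest at week 1 (−2.77 ± 0.28, adjusted p = 0.00369; −1.62 at week 0). Aurka, a mitotic kinase, was lower by 1.19 ± 0.25 (adjusted p = 0.0425) and lost the call whichever of the 8 arrays was left out. It was low in D2 at weeks 4, 12 and 21 (2.87, 3.14 and 2.65), so the size of its difference is uncertain. Of 16 clock genes 1 was higher, near the share of 6.37% called of all genes tested. It was Per3 (1.15 ± 0.19, adjusted p = 0.0177), lost when a week 4 or 21 array of either strain or the D2 array of week 1 was left out (adjusted p reaching 0.0658). Of 4 other probe sets of Per3, 1 was called the same way (2.65, limma adjusted p = 0.000903) and 1 the opposite way (−1.20, adjusted p = 0.0401). The rest were positive and not called (0.58 and 0.13). The direction of Per3 is thus not settled. Dbp, an output factor of the clock, differed by 1.21 ± 0.31 without passing (adjusted p = 0.067). The time of day at which livers were taken was not given in the labels. Pdia4, an isomerase of the endoplasmic reticulum, was the single call among 22 genes of the unfolded protein response (1.53 ± 0.29, adjusted p = 0.0316), lost when a week 4, 12 or 21 array of either strain was left out (adjusted p reaching 0.115). Sardh, which oxidises sarcosine, was the single call among 24 genes of amino acid metabolism (−0.43 ± 0.09, adjusted p = 0.0354), lost when a week 4, 12 or 21 array of either strain was left out (adjusted p reaching 0.14). None of 30 respiratory chain genes was called in limma (4 at an unadjusted p under 0.05; median 0.01).

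The place of the called genes on the chromosomes was read from the RefSeq gene table. Among 11032 tested genes with a place in it, 701 were called, and 120 of these (17.1%) had a called gene as the next tested gene on either side, against 11.6% of the uncalled genes. Of 66 adjacent pairs of called genes 50 differed in the same direction. The longest run, 4 genes on chromosome 4 all lower in D2, was Cd52, Sh3bgrl3 (−1.44 ± 0.32, adjusted p = 0.0472), Cep85 (−1.92 ± 0.17, adjusted p = 0.0025) and Zfp593 (−1.38 ± 0.14, adjusted p = 0.00409). Without 1 array Cep85 and Zfp593 kept their calls, while Sh3bgrl3 was lost when a week 1, 12 or 21 array of either strain was left out (adjusted p reaching 0.15). Another run on chromosome 7 joined Fgf21 to Bcat2, the mitochondrial branched-chain aminotransferase, which read 4.73, 5.25, 4.88 and 5.18 in B6 and 6.58, 6.96, 6.33 and 6.43 in D2 (1.56 ± 0.15, adjusted p = 0.00317; 1.14 at week 0). Bcat2 and Fgf21 were both higher in D2 at every week, and the third gene of that run, 0610005C13Rik, was lower.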

How the data were processed

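Liver RNA pools of 5 female mice were measured on 10 Affymetrix Mouse Genome 430 2.0 arrays, and the 8 from weeks 1 to 21 on the diet were compared. The authors deposited linear signal intensities computed with GCOS, per the submitters' processing notes; its version is not given in the sources used here. No detection calls, scan dates or hybridisation batches were used, and strain and any such batch cannot be told apart.

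After the 64 control probe sets were left out, the 10 arrays were quantile normalised and transformed as log2(signal + 1.05), where 1.05 is the 10th percentile of the deposited intensities. Of 45101 probe sets these 64 were controls; of the rest, 34945 had 1 gene symbol, 932 several and 9160 none; symbols were updated from RefSeq annotation. Each of 18193 genes was represented by its brightest probe set on average, kept above the 50th percentile of all means (3.74). Tests used limma 3.58.1 in R 4.3.3 (lmFit, eBayes with trend, with tables read by the package data.table, version 1.17.8), with strain and week as terms, 3 residual degrees of freedom and Benjamini-Hochberg adjustment over 11061 genes. A second fit to 10 arrays tested the strain difference on the diet against week 0. The scripts were tested on simulated data. Python 3.11.15 and matplotlib 3.10.9 served for figures.

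Members, the 35 gene lists and the tests were chosen with earlier results of these data known. The lists held 767 entries, 80 of them without a named probe set. The genes named in the text are the 12 largest called differences each way, a fixed set of key genes, and up to 4 called members of each list; members past these 4 in the stellate cell and conjugation lists, and neighbouring genes, were named after their values were seen. The week block comes from the labels' weeks. After removal of strain means, arrays of the same week correlated at −0.0096, 0.0066, 0.278 and 0.0893 for weeks 1, 4, 12 and 21, so the weeks pair the arrays by design, with little shared deviation. Alternatives were the scale of the arrays, the pseudocount, the filter, the choice of probe set, the variance model, the block, the week 0 pair added, and each array left out; gene list calls under them were added after seeing the data.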

Additional observations from a re-analysis of the deposited data

Results flagged for a closer look

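Among the 4 diet arrays of a strain, 1 array stood far from the others for 11 of 212 gene and strain groups checked, by Dixon's gap ratio against its critical value for 4 values. Chance flags about 1 in 20 such groups.

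In B6, Tmem87a was lowest at week 1 (0.64, next array 3.10), Aurka was highest at week 1 (5.87, next 4.20) and so was Cyp2u1 (4.46, next 2.82). At week 4, B6 was highest in the nucleic acid sensor gene Mndal (9.18, next 7.96) and in Trim34a (7.03, next 6.29). Pygl, the liver glycogen phosphorylase, was lowest in B6 at week 12 (11.10, next 11.30), a gap of a narrow range, and Cyp2c39 was highest in B6 at week 21 (6.30, next 5.51).

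In D2 the 4 such values all belonged to week 12. Sqle, the squalene epoxidase, stood at 9.27 against 4.58 in the next array. Mt2 was highest (11.60, next 11.12), while Cd22 (1.97, next 3.30) and Col3a1 (6.68, next 7.32) were lowest.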

How the results depend on the processing

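The count of 705 genes, 329 higher and 376 lower in D2, rested on 3 residual degrees of freedom per gene and on limma's prior for the spread. With a single prior for the spread it was 460 (219 higher and 241 lower), with every probe set tested 1184 (568 and 616), and at the deposited scale 530 (173 and 357). With 1 array left out it ran from 223 to 506 in all, from 110 to 257 higher and from 110 to 249 lower; fewer pairs enter these fits. The other settings gave 500 to 883. Without the replicate block on week 774 genes were called, of which 593 were shared with the blocked fit; the test of the diet against week 0 then called 1 gene (Clcn5, adjusted p = 0.0203) in place of 0, and it called 0 genes under the other alternatives run, including each array left out.

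Of 97 called genes named in the text, 39 kept the call in every alternative, 11 lost it only when an array was left out, and 47 lost it under another setting. The single prior removed 34 of them (adjusted p 0.0525 to 0.137): Serpina4-ps1, Col1a1, Abcg5, Cyp7a1, Cd36, Elovl3, Mt2, Serpina3n, Hsd3b7, Lgals3, Krt8, Hadha, Acads, Trim24, Pygl, Gstm3, Ifi209, Acaca, Dgat2, Cd52, Cd163, Cd5l, Col1a2, Ugt2b37, Sult1c2, Pdia4, Sardh, Col4a1, Col14a1, Ugt3a1, Ugt2b1, Ugdh, Bgn and Sh3bgrl3. Leaving out the block removed 23 (adjusted p 0.0502 to 0.221): Cyp8b1, Serpina4-ps1, Cyp7a1, Cd36, Mt2, Hsd3b7, Aurka, Lgals3, Krt8, Sc5d, Cyp2b10, Gstm3, Lpl, Pparg, Dgat2, Cd163, Cd5l, Sardh, Col4a1, Tagln, Ugt3a1, Ugt2b1 and Sh3bgrl3. No filter on low genes removed 16 (adjusted p 0.0501 to 0.0907): Mt2, Serpina3n, Hsd3b7, Aurka, Lgals3, Hadha, Trim24, Pparg, Dgat2, Cyp2u1, Col1a2, Sardh, Col4a1, Tagln, Ugt2b1 and Sh3bgrl3. The week 0 pair added removed 16 (adjusted p 0.0508 to 0.236): Cyp7a1, Aurka, Lgals3, Krt8, Hadha, Trim24, Lpl, Dgat2, Cd5l, Cyp2u1, Col1a2, Col3a1, Pdia4, Col4a1, Ugt3a1 and Bgn. The mean of probe sets removed 11 (adjusted p 0.0502 to 0.842): Serpina4-ps1, Pdxdc1, Col1a1, Serpina3n, H2-K1, Lgals3, Sc5d, Per3, Trim24, Col1a2 and Sardh. The deposited scale removed 9 (adjusted p 0.0523 to 0.211): Fgfr4, Hsd3b7, Hadha, Acads, Trim24, Dgat2, Cyp2u1, Pdia4 and Ugt2b1. Robust variances removed 9 (adjusted p 0.051 to 0.091): Serpina4-ps1, Col1a1, Cyp7a1, Mt2, Serpina3n, Lgals3, Cd52, Col1a2 and Sh3bgrl3. Either of 2 median centrings removed Hsd3b7, Hadha, Acads, Pygl, Dgat2 and Sardh, a pseudocount of 16 removed Aurka, Lgals3, Col1a2, Col4a1 and Sh3bgrl3, and a filter at the 75th percentile removed Serpina3n, Lgals3 and Col1a2. Ppara passed at the deposited scale (adjusted p = 0.0283), with the week 0 pair added (0.0337) and without either array of week 12 (0.0274 or 0.0277), and Dbp passed under 4 settings. No called gene changed sign; Sqle, not called, went from 1.04 to −0.12 without either array of week 12, and with 1 array left out it ranged from −0.12 to 1.52. The median of the sulfotransferase and glucuronosyltransferase list turned from −0.03 to 0.09 with arrays centred on their median, and that of hepatocyte markers, which quantile normalisation holds near 0, moved to 0.19. The cause was not tested. Low levels, such as those of Sult3a1 in B6 at week 1 or Mndal in D2, make the size of the largest differences uncertain, and signal over background is unknown without detection calls.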
